A study of Mus musculus with 2 samples.

Results

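The mouse major histocompatibility complex (MHC), called H-2, lies on chromosome 17 and was examined here for CTCF binding sites. Peaks were taken when their midpoint fell between 33900000 and 35540000 on chromosome 17 of the mm9 build. This stretch of 1.64 Mb held 100 of 44424 peaks in embryonic stem (ES) cells and 96 of 53736 peaks in mouse embryonic fibroblasts (MEFs). In all, 196 of 98160 deposited peaks were members. The stretch was divided by position into 4 parts. The H2-K end covered the first 300 kb, the class II part the next 400 kb, the class III part a further 750 kb and the H2-D end the last 190 kb.

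The series holds 1 CTCF chromatin immunoprecipitation library per cell type, sequenced after sonication, with the same Millipore antibody in both. ES cells are pluripotent cells of the early embryo, and the labels give their genetic background as Bl3.10 and C57BL. MEFs are connective-tissue cells grown from embryos, and their labelled background is C57BL6. All cells grew in DMEM medium with 10% fetal calf serum, and no treatment or genetic change is labelled. Cell type, background and library therefore cannot be told apart, which bears on every comparison here because the MHC is among the most polymorphic parts of the genome. No replicates exist, so no p-value is given, and every interval covers counting error only. Read numbers are not stated by the labels, and an input control is not part of what was analysed. Identity of the cells could not be checked by marker genes, since peak lists hold no expression values.

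The MHC holds the genes through which cells show peptides to T cells. Class I molecules, such as those of H2-K1 and H2-D1, carry peptides from inside the cell and occur on most nucleated cells. Class II molecules pair an alpha with a beta chain: H2-Aa with H2-Ab1, and an E alpha chain with H2-Eb1. They are made mainly by antigen-presenting cells, and fibroblasts switch them on after interferon-gamma. The class III part holds complement, heat shock and tumour necrosis factor genes. CTCF is a zinc-finger protein that marks insulators and the borders of chromatin loops. In human B cells, CTCF bound between class II genes is known to contact their promoters.

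Genes could be placed only by name and order. Peak positions are in mm9, whereas the RefSeq gene table used follows GRCm38.p6, so no peak was assigned to a gene, exon, intron or promoter. All 34 genes looked for were found in that table. Their order was Tapbp, H2-K1 and H2-Ke6, then the class II and antigen-processing genes H2-Oa, H2-DMa, H2-DMb2, H2-DMb1, Psmb9, Tap1, Psmb8, Tap2, H2-Ob, H2-Ab1, H2-Aa, H2-Eb1, H2-Eb2 and H2-Ea. Tap1 and Tap2 form the pump that brings peptides to class I molecules, and Psmb8 and Psmb9 are subunits of the immunoproteasome. H2-DMa, H2-DMb1 and H2-DMb2 help to load peptides onto class II molecules. The class III genes Notch4, C4b, C4a, Cfb, C2, Hspa1b, Hspa1a, Ltb, Tnf and Lta followed, and after them came H2-D1 and the H2-Q class I genes. This is the order that the names of the 4 parts assume. RefSeq lists H2-Ea and C4a as transcribed pseudogenes and the other genes named as protein-coding.

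Promoters of the member genes are shown as the regulatory sequences of the genes that name the region, and no peak was placed on or beside them. RefSeq sequences (GRCm38.p6) were at hand for 4 of 5 members. Each line gives the 250 bases before the transcription start, 5′ to 3′ on the gene's strand. Capitals mark matches on either strand to CCAAT, the box bound by NF-Y in class II promoters, and to AGGNGGC, a short core of the CTCF motif. For H2-K1 the more upstream of 2 listed starts was taken (chr17:34000348-34000597, minus strand). The others are H2-Aa (chr17:34287824-34288073, minus strand), H2-Eb1 (chr17:34305617-34305866, plus strand) and H2-D1 (chr17:35262844-35263093, plus strand).
H2-K1: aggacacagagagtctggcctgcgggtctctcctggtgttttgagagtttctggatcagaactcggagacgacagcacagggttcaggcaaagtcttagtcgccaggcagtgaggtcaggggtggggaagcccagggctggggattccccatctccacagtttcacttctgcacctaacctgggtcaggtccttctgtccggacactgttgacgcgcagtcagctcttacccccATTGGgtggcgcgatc
H2-Aa: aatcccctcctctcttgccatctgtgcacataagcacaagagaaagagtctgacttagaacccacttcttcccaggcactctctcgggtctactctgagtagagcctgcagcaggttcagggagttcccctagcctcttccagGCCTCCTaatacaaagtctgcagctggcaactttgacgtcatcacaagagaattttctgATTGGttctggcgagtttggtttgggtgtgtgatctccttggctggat
H2-Eb1: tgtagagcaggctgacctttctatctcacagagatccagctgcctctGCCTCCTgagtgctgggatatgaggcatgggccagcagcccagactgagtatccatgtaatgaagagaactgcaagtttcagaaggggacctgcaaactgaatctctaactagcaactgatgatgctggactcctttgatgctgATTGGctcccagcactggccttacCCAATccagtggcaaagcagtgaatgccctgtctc
H2-D1: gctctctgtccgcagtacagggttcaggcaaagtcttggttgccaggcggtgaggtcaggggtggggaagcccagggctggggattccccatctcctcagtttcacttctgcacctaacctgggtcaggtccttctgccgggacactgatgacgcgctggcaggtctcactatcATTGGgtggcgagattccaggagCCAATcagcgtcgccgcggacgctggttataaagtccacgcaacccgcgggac

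All 4 promoters held the CCAAT box, once in H2-K1 and H2-Aa and in 2 copies in H2-Eb1 and H2-D1. Among all 32851 promoter windows of the table, 33.8% held it. The short CTCF core was found once in the class II promoters H2-Aa and H2-Eb1 and not in the class I promoters H2-K1 and H2-D1. It occurred in 25% of all promoter windows, and no overlap between the 2 motifs was seen in these 4. A match of 7 letters is a description of the sequence and does not show binding. For H2-K1 the counts hold for the start taken, and those of its other listed start are not given here.

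CTCF peaks were crowded in the MHC in both cell types. The ES list had 61.0 peaks per Mb there (95% Poisson interval 49.6 to 74.2), against 17.6 per Mb on all autosomes, a 3.46-fold higher density. The MEF list had 58.5 peaks per Mb (47.4 to 71.5) against 21.1, which is 2.77-fold higher. On the rest of chromosome 17 the densities were 19.9 in ES cells and 22.2 in MEFs, below both intervals. Autosomes were also cut into 1500 consecutive windows of the same length, empty ones included. The median window held 23 ES and 31 MEF peaks. At least as many peaks as in the MHC lay in 20 windows (1.33%) for ES cells and in 23 windows (1.53%) for MEFs.

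**Figure D1:**
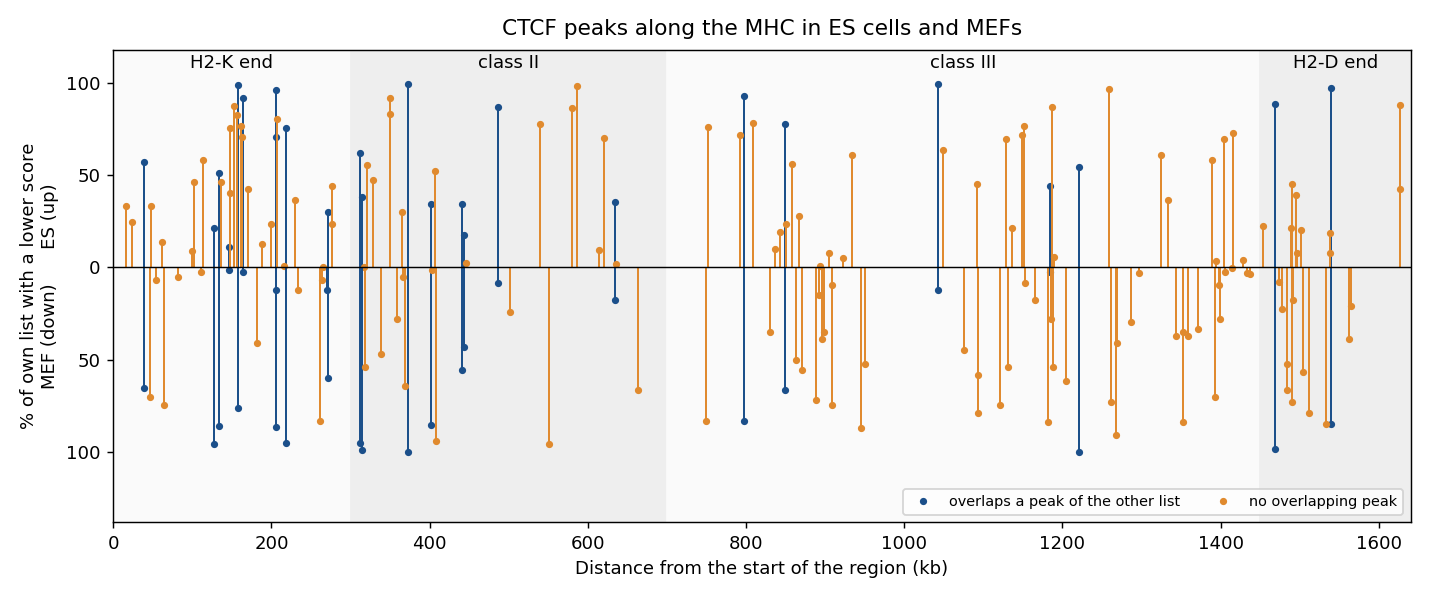
Every CTCF peak of the MHC, by distance from the start of the region (kb, x axis) and by the percentage of its own list with a lower score (y axis; ES upward, MEF downward). Blue peaks overlap a peak of the other list and orange peaks do not. ES peaks crowd in the H2-K end, and both lists thin out towards the end of the class II part.

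Peaks in the MHC were shared about as often as elsewhere. Sharing here means an overlap of 1 bp or more between an ES and a MEF peak. Of the 100 ES peaks, 25 were shared (25%, 95% Wilson interval 17.5 to 34.3), against 26.1% of the whole ES list. Of the 96 MEF peaks, 26 were shared (27.1%, 19.2 to 36.7), against 21.6% of the whole MEF list. Both intervals include the value of the whole list. For the other 75 ES and 70 MEF peaks, nothing was called at that place in the opposite list, which does not show that CTCF was absent there. Joining overlapping peaks of both lists gave 165 separate sites, of which 24 carried peaks of both cell types, 73 of ES cells only and 68 of MEFs only. The fraction with both was 14.5%, and over all autosomes it was 12.9% of 82513 sites.

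The balance between the lists differed from part to part. Over the whole MHC there were 0.960 MEF peaks per ES peak (95% exact binomial interval 0.718 to 1.28), and the autosomal value of 1.20 lies inside this interval. The H2-K end had the lowest ratio, 0.606 (0.330 to 1.09), and it was the only part whose interval lay below the autosomal value. The class II part had 0.818 (0.414 to 1.60), the class III part 1.36 (0.851 to 2.21) and the H2-D end 1.08 (0.456 to 2.60). Without the H2-K end, the MHC had 1.13 MEF peaks per ES peak (0.806 to 1.60). The H2-K end is the lowest of 4 parts, so its interval overstates how far it stands apart, and the intervals of all 4 parts overlap. In the higher-scoring 50% of each list it held 14 ES and 10 MEF peaks, a ratio of 0.714 whose interval (0.284 to 1.73) includes the autosomal 1.20. When only as many top-scoring MEF peaks as there are ES peaks were kept, 11 of them lay there and the ratio was 0.333 (0.152 to 0.676), against 0.993 on the autosomes.

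**Figure D2:**
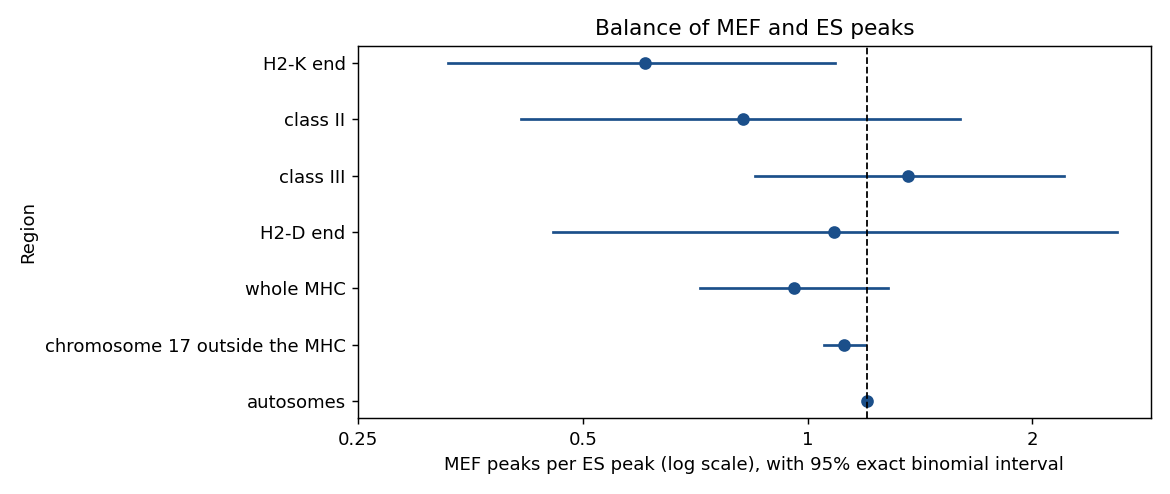
MEF peaks per ES peak (log scale) for each part, the whole MHC, the rest of chromosome 17 and all autosomes, with 95% exact binomial intervals. The dashed line is the autosomal ratio of 1.20, and only the interval of the H2-K end, among the 4 parts, ends below it.

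The H2-K end, named for the class I gene H2-K1, had the highest ES density. Its 33 ES peaks gave 110 per Mb (75.7 to 154), 6.25-fold the autosomal density, and its 20 MEF peaks gave 66.7 per Mb (40.7 to 103), 3.16-fold. Of 8229 autosomal windows of 300 kb, 11 held at least as many ES peaks, whereas 230 held at least as many MEF peaks. An excess of ES over MEF peaks of at least 13, as seen here, occurred in 15 of these windows (0.182%). The surplus lay mainly in 1 stretch of 100 kb. Between 34000000 and 34100000 there were 17 ES peaks and 7 MEF peaks, and the next 100 kb held 10 and 8. This stretch was singled out after the counts were seen.

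Most unshared peaks of the H2-K end were ES peaks. Of its ES peaks 10 were shared and 23 were not, and of its MEF peaks 11 were shared and 9 were not. MEF-only peaks per ES-only peak came to 0.391 (0.159 to 0.878), against 1.27 on all autosomes. The shared percentage was 55.0% for MEF peaks (34.2 to 74.2), above the 21.6% of the whole list, and 30.3% for ES peaks (17.4 to 47.3). The density of ES peaks was also highest here, and its part in the high MEF percentage was not tested. With an overlap of at least 50% of both peaks required, 7 of the 20 MEF peaks were shared (35%, 18.1 to 56.7). That interval includes the 19.1% of MEF peaks on all autosomes. The MEF interval was 34.2 to 74.2 with midpoints within 500 bp, above the autosomal 22.9%, and the same with merged peaks, above 21.2%. In the higher-scoring 50% of each list it was 39.7 to 89.2, above 28.95%. When only as many top-scoring MEF peaks as ES peaks were kept, it was 35.4 to 84.8, above 23.3%.

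Among ES peaks of the H2-K end, the highest scores belonged to shared peaks. The score deposited with each peak is not defined and serves here only to rank peaks within a list. The ES peak at chr17:34057699-34058097 scored above 98.8% of its list, and its MEF partner 47 bp away above 76.3%. A pair at 34105420 (ES) and 34105259 (MEF) scored above 96.3% and 86.3%. The shared ES peak at 34063479 scored above 91.9% of the ES list, but its partner above only 2.49% of the MEF list. The MEF peaks at 34027683 and 34118029 scored above 95.6% and 95.3% of their list, and their ES partners above 21.5% and 75.4%. Ranks within the 2 lists thus differed widely at several shared sites. These pairs were picked for a high score in either list, so a lower-ranking partner is likely. Rank differences at shared sites elsewhere were not computed.

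Unshared peaks of the H2-K end ranked lower. The highest ES-only peaks began at 34051885, 34056330 and 34106339 and scored above 87.5%, 82.5% and 80.3% of the ES list. The last of them lay only 459 bp from a MEF peak, and the first 5.77 kb from one. The highest MEF-only peaks began at 34161580, 33963864 and 33945829 and scored above 83.1%, 74.6% and 69.9% of the MEF list. The median MEF-only peak scored above 12.1% of its list, whereas over all autosomes the median MEF-only peak scored above 44.8%. ES peaks stood close together: 10 of 33 (30.3%) had another ES peak within 1 kb, against 12.0% on all autosomes. The share was 58.3% in the H2-D end, 9.09% in the class II part and 6.06% in the class III part. Peaks that overlap each other, such as those at 34105420 and 34105787, are counted here, and a higher density by itself raises this share. Sites ran from 33915860 to 34176396. The closest neighbours were ES-only peaks at 34047025 and 34047518, with 0.493 kb between midpoints. The widest distance was 28.3 kb, between MEF-only peaks at 34133312 and 34161580.

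**Figure D3:**
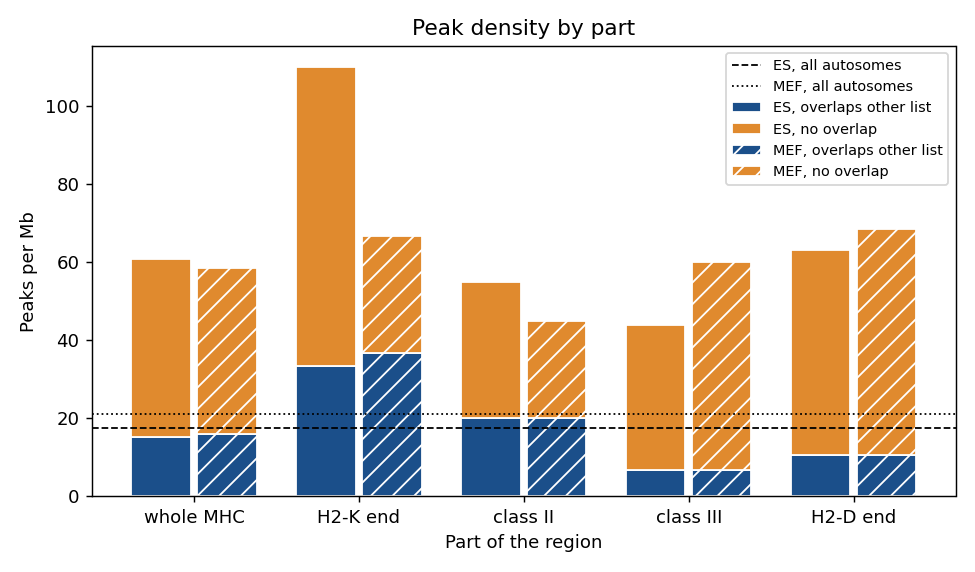
Peaks per Mb in the whole MHC and its 4 parts, with ES bars plain and MEF bars hatched, divided into peaks that overlap the other list (blue) and those that do not (orange). Dashed and dotted lines are the autosomal densities of 17.6 (ES) and 21.1 (MEF) peaks per Mb, and every bar rises above them.

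The class II part, which by its name holds H2-Ab1, H2-Aa and H2-Eb1, carried 22 ES and 18 MEF peaks. The ES density was 55 per Mb (34.5 to 83.3) and the MEF density 45 per Mb (26.7 to 71.1), or 3.12-fold and 2.13-fold that of the autosomes. In each list 8 peaks were shared, leaving 14 ES-only and 10 MEF-only peaks. The shared percentage was 36.4% for ES peaks (19.7 to 57.0) and 44.4% for MEF peaks (24.6 to 66.3). The second interval lies above the 21.6% of the whole MEF list, and the first includes the 26.1% of the whole ES list. In the higher-scoring 50% of each list, 5 of 10 class II MEF peaks were shared (50%, 23.7 to 76.3). That interval includes the 28.95% of autosomes. The MEF interval was 24.6 to 66.3 with an overlap of at least 50% of both peaks, above the autosomal 19.1%. It was the same with midpoints within 500 bp, above 22.9%, and with merged peaks, above 21.2%. When only as many top-scoring MEF peaks as ES peaks were kept, it was 24.8 to 69.9, above 23.3%. Of the MEF peaks, 5 of 18 belonged to the highest-scoring 10% of their list, and of the ES peaks 3 of 22.

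Shared peaks matched closely in position in class II, but not there alone. For 5 of 8 the ES and MEF peaks began within 10 bp of each other (62.5%, 30.6 to 86.3), against 14.3% of shared ES peaks on all autosomes. The median offset was 6.50 bp in class II (range 1 to 105 bp) and 45 bp on the autosomes. In the H2-K end it was 118.5 bp (range 37 to 252 bp), and none of 10 shared ES peaks lay within 10 bp of its partner, which allows up to 27.8% by the Wilson interval. In the class III part 2 of 5 shared ES peaks did (40%, 11.8 to 76.9, median offset 11 bp), and in the H2-D end 1 of 2 (median 12 bp). Close matches thus occurred in all parts but the H2-K end. Over the whole MHC they made up 8 of 25 shared ES peaks (32%, 17.2 to 51.6), and the median offset was 46 bp. Without the H2-K end, which held none, they made up 8 of 15 (53.3%, median 8 bp). Leaving out a part for holding none raises the share by itself, so 53.3% cannot be set against the autosomal 14.3%.

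Spacing along the class II part was uneven, as it was over all autosomes. Its 32 sites of both lists lay a median of 6.63 kb apart (quartiles 1.999 and 14.6 kb, 95% interval of the median 2.28 to 11.05). Over all autosomes the median was 13.6 kb and the quartiles were 4.71 and 33.9 kb. ES peaks alone were a median of 6.89 kb apart (quartiles 3.40 and 27.1) and MEF peaks alone 15.0 kb (quartiles 3.27 and 29.3). The interval of the MEF median, 3.27 to 29.3 kb, includes the 22.0 kb of MEF peaks on all autosomes, and that of the ES median, 3.40 to 27.1 kb, also includes the autosomal 22.0 kb. The first 200 kb held 15 ES and 14 MEF peaks, of which 7 in each list were shared. The last 200 kb held 7 ES and 4 MEF peaks, of which 1 in each list was shared. The shared percentage of ES peaks was 46.7% (24.8 to 69.9) in the first 200 kb and 14.3% (2.57 to 51.3) in the last, and that of MEF peaks 50% (26.8 to 73.2) and 25% (4.56 to 69.9). Of these 4 intervals only that of MEF peaks in the first 200 kb leaves out the value of the whole list (26.1% for ES, 21.6% for MEF). At 20 peaks per Mb (5.45 to 51.2), the MEF density of the last 200 kb was 0.947 times that of the autosomes.

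**Figure D4:**
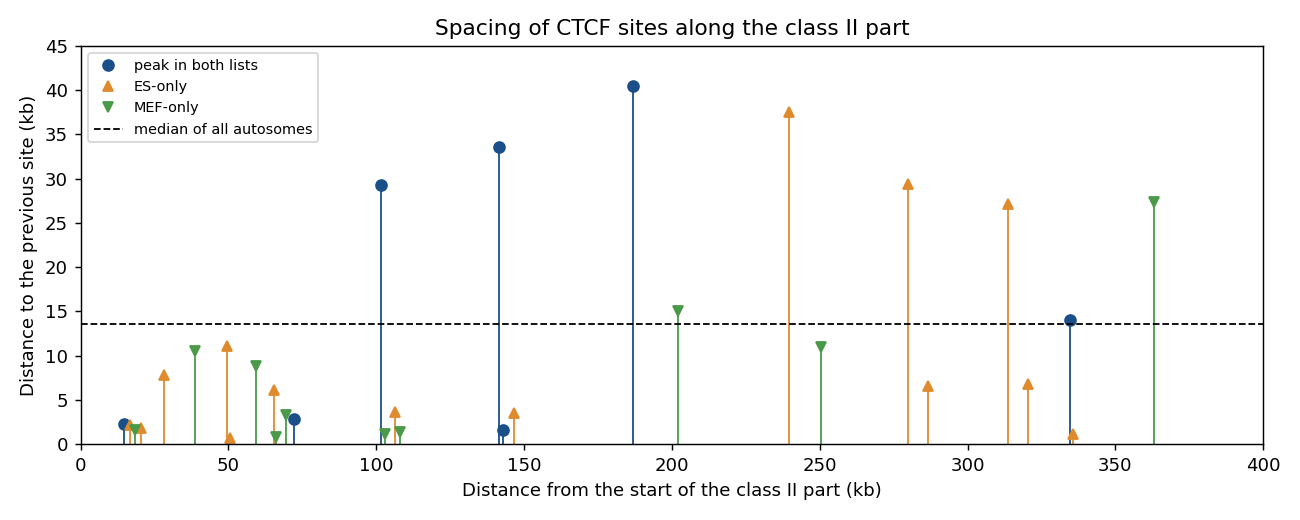
Distance from each class II site to the site before it (kb, y axis) along the class II part (kb from its start, x axis), for sites with peaks in both lists, in ES cells only or in MEFs only. The dashed line is the autosomal median of 13.6 kb, and 7 distances of 20 kb or more break the row of sites into 8 groups.

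Counted from the H2-K side, these distances of 20 kb or more, a limit set after seeing the data, left 8 groups of sites. The first was the largest, with 14 sites in 60.4 kb, and 3 of its sites had peaks of both cell types. It opened with shared sites at 34212136 and 34214460. At the second of these the peaks began 2 bp apart, and the MEF peak scored above 98.8% of its list while the ES peak scored above 38.4%. ES-only peaks followed at 34216657, 34220057, 34227865, 34249468, 34250196 and 34265221. Those at 34249468 and 34250196, 0.728 kb apart, were the closest neighbours of the class II part and scored above 83.3% and 91.5% of the ES list. MEF-only peaks of this group began at 34218256, 34238420, 34259040, 34266018 and 34269283 and scored above 5.04% to 64.0% of their list.

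The first group ended with the site that ranked highest in the class II part in both cell types. The ES peak, chr17:34272114-34272512, scored 280 and took rank 350 of 44424. The MEF peak, chr17:34272119-34272517, scored 351 and took rank 109 of 53736. The peaks were 5 bp apart and scored above 99.2% and 99.8% of their lists. To its right 29.3 kb passed before the next site.

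The second group held 4 sites in 6.61 kb. It began with a shared site at 34301456, whose peaks were 3 bp apart and scored above 34.1% (ES) and 85.1% (MEF) of their lists. A weak MEF-only peak at 34302608, an ES-only peak at 34306229 and a MEF-only peak at 34307663 followed. The last scored above 93.9% of the MEF list and lay 1.43 kb from that ES-only peak. After 33.6 kb came the third group, with shared sites at 34341211 and 34342817 and an ES-only peak at 34346365. Both shared sites were of middling to low score, and their peaks began 8 bp and 1 bp apart.

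The widest distance of the class II part, 40.4 kb, separated the third group from the fourth. The fourth group held a shared site at 34386741 and a MEF-only peak at 34401892. At the shared site the ES peak scored above 86.7% of its list and the MEF peak, 105 bp away, above 8.63%. Among all autosomal distances between sites, 20.8% were as wide as 40.4 kb or wider.

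From the fifth group to the eighth, 1 of 9 sites had peaks in both lists (11.1%), close to the 12.9% of all autosomal sites. The fifth group held an ES-only peak at 34439380 and a MEF-only peak at 34450366, which scored above 95.5% of the MEF list and lay 10.99 kb from the nearest ES peak. The sixth held ES-only peaks at 34479728 and 34486354. The latter, chr17:34486354-34486752, was the highest-scoring ES-only peak of the class II part, above 98.0% of the ES list, and the nearest MEF peak was 35.99 kb away. The seventh group held ES-only peaks at 34513459, 34520243 and 34535483 and the shared site at 34534261, whose peaks scored above 35.2% (ES) and 17.8% (MEF). A MEF-only peak at 34562820 stood alone at the end. No site followed for 85.8 kb, across the border to the class III part.

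The class III part, with the complement and tumour necrosis factor genes, had the most MEF peaks of the 4 parts and was the longest. It carried 33 ES peaks, or 44.0 per Mb (30.3 to 61.8), and 45 MEF peaks, or 60.0 per Mb (43.8 to 80.3). The MEF density was higher in the H2-K end (66.7 per Mb) and the H2-D end (68.4 per Mb). In each list 5 peaks were shared. For ES peaks that is 15.2% (6.65 to 30.9), for MEF peaks 11.1% (4.84 to 23.5), and both intervals include the values of the whole lists. With the MEF list shortened to the ES length, 3 of 34 MEF peaks were shared (8.82%, 3.05 to 22.96), an interval just below the 23.3% of autosomes under that setting. The ES share under the same setting was 9.09% (3.14 to 23.57), an interval that includes the autosomal 23.34%. Under the other overlap rules, in the higher-scoring 50% and with merged peaks, the MEF intervals included the autosomal values. The 5 sites with peaks in both lists were a median of 97.2 kb apart. That median was 12.3 kb in the H2-K end, 39.8 kb in the class II part and 73.3 kb over all autosomes. Of 72 sites in the class III part, 28 were ES-only (38.9%) and 39 MEF-only (54.2%), against 38.4% and 48.7% of all autosomal sites.

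Ranks in ES cells and MEFs differed widely at some shared class III sites. The ES peak at chr17:34942159-34942557 scored above 99.3% of the ES list, but its MEF partner 5 bp away scored above 12.1% of the MEF list. The MEF peak at chr17:35121202-35121600 scored above 99.7% of its list, and its ES partner 6 bp away above 54.4%. The shared peaks at 34697395 (ES) and 34697430 (MEF) ranked high in both, above 92.6% and 83.1%. Those at 34749415 and 34749426 scored above 77.7% and 66.6%. Scores of the lists are not on a common scale, so these are ranks within each list. The pairs were picked for a high score in either list, which makes a lower-ranking partner likely. Whether ranks differ more here than at shared sites elsewhere was not tested.

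Unshared class III peaks reached high ranks too. The highest ES-only peaks began at 35158058, 35087180 and 34709004 and scored above 96.7%, 86.9% and 78.3% of the ES list. The highest MEF-only peaks began at 35166940, 34844985 and 35081008 and scored above 90.6%, 86.7% and 83.6% of the MEF list. Sites ran from 34648633 to 35336771. The closest neighbours were the shared site at 34749415 and an ES-only peak at 34750047, 0.626 kb apart. The widest distance of the whole region, 92.2 kb, lay between a MEF-only peak at 34849971 and the shared site at 34942159. Among autosomal distances 6.58% were at least as wide.

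The H2-D end, named for the class I gene H2-D1, carried 12 ES peaks (63.2 per Mb, 32.6 to 110) and 13 MEF peaks (68.4 per Mb, 36.4 to 117). In each list 2 peaks were shared, or 16.7% (4.70 to 44.8) of the ES list there and 15.4% (4.33 to 42.2) of the MEF list. Both intervals include the 26.1% and 21.6% of the whole lists. The first pair began at 35368955 (ES) and 35368975 (MEF) and scored above 88.6% and 98.2% of the lists. The second, 4 bp apart at 35438916 and 35438920, scored above 97.3% and 84.6%. The 2 shared sites therefore ranked in the upper part of both lists. ES-only peaks at 35526744, 35390588 and 35526408 scored above 88.1%, 44.95% and 42.7% of the ES list. Another ES peak lay within 1 kb for 7 of 12 ES peaks (58.3%), against 12.0% on all autosomes, where ES peaks are less dense. MEF-only peaks at 35432756, 35411675 and 35389599 scored above 84.6%, 79.1% and 72.8% of the MEF list. Sites began at 35353013 and ended with the ES-only site at 35526408. The closest neighbours, 0.624 kb apart, began at 35438294 and 35438916. The widest distance, 62.5 kb, lay between 35464068 and 35526408.

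Sites were closer together than the autosomal median in all 4 parts when both lists were joined. The median distance was 6.26 kb in the H2-K end (95% interval 2.67 to 7.25), 6.63 kb in class II (2.28 to 11.05), 5.66 kb in class III (3.74 to 8.01) and 4.36 kb in the H2-D end (1.03 to 5.73), against 13.6 kb on the autosomes. Distances of 5 kb or less made up 46.2%, 45.2%, 47.9% and 60.0% in the same order, and 26.2% over all autosomes. Long distances of 20 kb or more made up 7 of 31 in class II, 1 of 39 in the H2-K end, 7 of 71 in class III and 3 of 20 in the H2-D end, against 32221 of 82494 on the autosomes. Differences between the parts in these shares were not tested. Shorter distances follow from the higher peak density given above, and spacing beyond density was not tested.

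**Figure D5:**
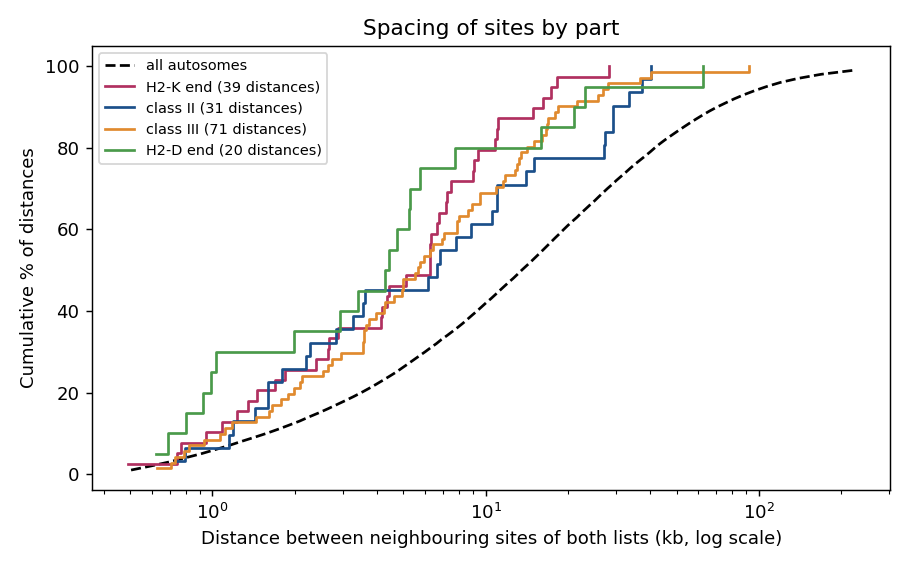
Cumulative percentage of distances between neighbouring sites of both lists (kb, log scale) in each part, with the autosomal distribution dashed. The curves of all 4 parts lie to the left of the autosomal curve over most of their range, and medians run from 4.36 to 6.63 kb against 13.6 kb. Shorter distances follow from the higher peak density of the parts.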

How the data were processed

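The authors deposited 1 list of peaks per library, with position and a whole-number score. The score is not defined in the deposited files, which have no header, and was used only for ranks within a list. The build is mm9, per the submitters' processing notes. The sources used here give no aligner, peak caller, threshold, control or read depth. Every peak spans 399 bp read as BED, and 1 was added to starts for printing.

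Members and gene lists were chosen with earlier results of these data known. Peaks were placed by midpoint. Overlaps of at least 1 bp were counted in Python 3.11.15 (numpy 2.4.6, pandas 2.3.3, scipy 1.17.1, matplotlib 3.10.9), matched bedtools 2.31.1, and were tested on simulated data with planted partners. Sites are overlapping peaks of both lists joined, and distances run between midpoints. Densities carry 95% Poisson intervals, percentages Wilson, ratios exact binomial and medians order-statistic intervals; peaks were treated as independent. Autosomal spans run from the first base to the last peak. Named peaks were all those of class II and, elsewhere, the 3 highest-scoring shared and unshared peaks of each list, the closest and widest distances, and the first and last sites. Alternatives were other overlap rules, shorter or merged lists and moved borders. Peak sequences and mm9 annotation were not used here.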

Additional observations from a re-analysis of the deposited data

How the results depend on the processing

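Of 78 alternative values for 16 results, 65 stayed within the interval of the value reported (for peak numbers, within 1.5 times) and 13 moved beyond it. The higher-scoring 50% of each list gave 12 of the moves, as it must for peak numbers. It left 47 ES and 49 MEF peaks in the MHC. By part, in order along the chromosome, it left 14, 11, 19 and 3 ES peaks and 10, 10, 21 and 8 MEF peaks. The median spacing in class II became 31.7 kb for ES peaks and 15.04 kb for sites of both lists. Cutting the MEF list to the ES length left 11 MEF peaks in the H2-K end. ES peak numbers and ES spacing could not change under that cut, yet they count among the 65. The MEF to ES ratio of the MHC ran from 0.720 with that cut to 1.04 in the higher-scoring 50%. On the autosomes the ratio was 0.993 with the cut and 1.20 in the higher-scoring 50%. Over all alternatives, 19.0% to 34.04% of MHC ES peaks were shared, and of MHC MEF peaks 22.9% to 34.7%. On the autosomes, under the alternatives that move no border, it was 22.9% to 30.7% of ES and 19.1% to 28.95% of MEF peaks. No paired analysis was possible because there is only 1 library of each cell type. What depth limits was not tested, since the files do not hold it.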

Other observations

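Neighbouring stretches of the same length also held more peaks per Mb than the autosomes. Before the stretch examined here, from 32260000 to 33900000, there were 29.3 ES and 28.0 MEF peaks per Mb. After it, from 35540000 to 37180000, there were 43.3 in both. MEF peaks per ES peak came to 0.958 (95% exact binomial interval 0.625 to 1.47) before and 1 (0.709 to 1.41) after. Sharing differed more. After the examined stretch, the shared peaks were 35 of 71 in the ES list (49.3%, Wilson interval 38.0 to 60.7) and 33 of 71 in the MEF list (46.5%, 35.4 to 58.0). Within the examined stretch it was 25% (17.5 to 34.3) and 27.1% (19.2 to 36.7), and before it 20.8% (11.7 to 34.3) and 21.7% (12.3 to 35.6). These flanks were chosen by length alone, and the difference was not tested. Whether they hold further MHC genes was not examined, since no gene was placed on mm9.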
